A study of Mus musculus with 4 samples.

Results

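Gpnmb-positive myeloid cells are the cells of inflamed mouse spinal cords (SCs) that carry at least 3 captured transcripts of Gpnmb. They were chosen by counts in single cells. A barcode entered the myeloid gate when it had at least 2000 unique molecular identifiers (UMIs, each 1 captured transcript), less than 10% of them from mitochondrial genes, at least 10 UMIs of the myeloid genes Tyrobp, Fcer1g and Ctss, at most 2 of the endothelial genes Cldn5, Cdh5, Egfl7 and Esam, at most 1 of the T cell genes Cd3e, Cd3d, Cd3g and Lat, and at most 3 of the microglial genes Tmem119, P2ry12, Olfml3, Siglech and Sall1. Members were the gated cells with at least 3 Gpnmb UMIs, and they were compared with the gated cells of the same library that had no Gpnmb UMI. There were 1599 Gpnmb-positive cells among 7741 gated myeloid cells and 26580 barcodes with at least 2000 UMIs. Another 967 gated cells had 1 or 2 Gpnmb UMIs and were in neither class, and 5175 had none.

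The study asked how angiopoietin-2 (Ang2), a vascular growth factor, acts in EAE, a mouse model of multiple sclerosis induced with a myelin peptide in adjuvant and pertussis toxin. Viable CD45+ leukocytes and CD31+ endothelial cells (ECs) were sorted in equal numbers from perfused, digested SCs and made into 4 droplet libraries. The mIgG1 and Ang2 Ab libraries came from wild-type C57Bl/6JOlaHsd mice aged 15 weeks at 14 days post immunization (dpi), treated from induction with an isotype control antibody or an Ang2-blocking antibody. The Ctrl and EC-Ang2 libraries came from C57Bl/6JCrl mice aged 12 to 14 weeks at 12 dpi, where EC-Ang2 mice carried VE-cadherin-tTA and Tet-OS-Ang2, which drive Ang2 in endothelium, and Ctrl mice were single-transgenic littermates. All mice of the second pair had doxycycline until birth, which keeps the transgene off. Both pairs had EAE, so no library came from a healthy SC. There was 1 library per condition, and how many animals each held is not given in the sources used here. No difference between conditions could therefore be tested, and between the pairs day, substrain, transgenic background, age, treatment and the dose of pertussis toxin, which was lower in the second pair, cannot be told apart. The libraries held 66631583 (mIgG1), 57954609 (Ang2 Ab), 52084739 (Ctrl) and 52796061 UMIs (EC-Ang2) over all barcodes.

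Gpnmb encodes a transmembrane glycoprotein of lysosomes and phagosomes that myeloid cells express when their lysosomes are loaded, for example with engulfed lipid. In demyelinating lesions, macrophages derived from blood monocytes take up myelin debris, break down its lipid and protein in acidified lysosomes, store cholesteryl ester in lipid droplets and export cholesterol. Cells of this kind in other tissues are called foamy or lipid-associated macrophages and are known for Fabp5, Spp1, Cd63 and Ctsb.

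Gpnmb-positive cells made up 34.4% of the gated myeloid cells of mIgG1 (756 of 2199, exact Clopper-Pearson 95% interval 32.4 to 36.4) and 18.2% of those of Ang2 Ab (433 of 2381, 16.7 to 19.8). The Ctrl share was 2.5% (29 of 1161, 1.68 to 3.57) and the EC-Ang2 share 19.1% (381 of 2000, 17.4 to 20.8). The share was lower in Ang2 Ab than in mIgG1 and higher in EC-Ang2 than in Ctrl, and within neither pair did the intervals overlap. These intervals cover counting error only, so they do not say whether the difference exceeds that between animals. With every cell thinned to 2000 UMIs and counted when at least 1 Gpnmb UMI was left, the shares were 35.7%, 21.2%, 2.67% and 19.1% in the same order. The same measure in ECs, which should lack Gpnmb, gave 5.21%, 1.74%, 0.0675% and 1.5%. Median depths before thinning were 7101, 5531, 6771 and 7368 UMIs in gated cells and 3864, 3308, 4192 and 5260 in ECs. At the threshold of 3 UMIs, 1 of 1611 ECs of mIgG1 passed (0.0621%), and none did of 2592, 2963 and 1801 in the other libraries, which by a limit of 3 counts allows shares of up to 0.116%, 0.101% and 0.167%.

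**Figure D1:**
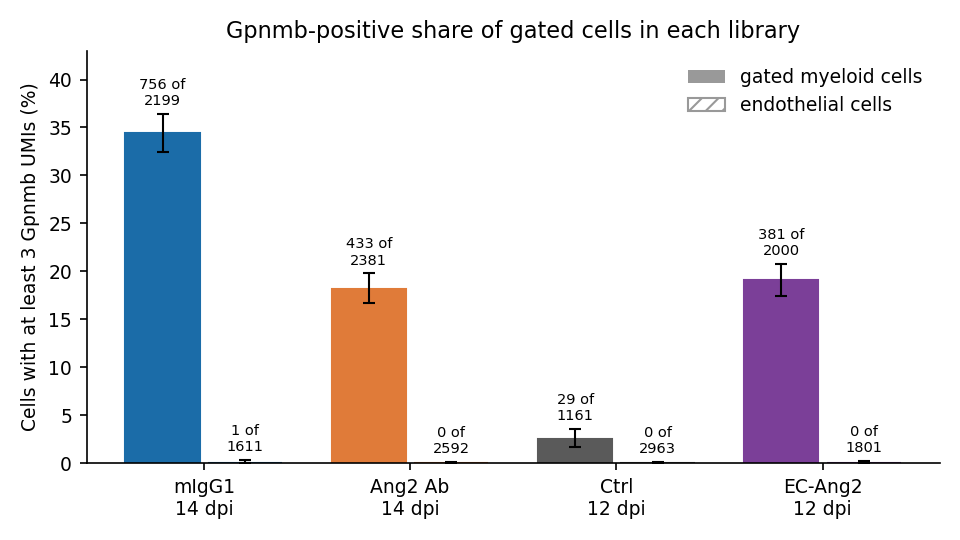
Bars give the percentage of cells with at least 3 Gpnmb UMIs among gated myeloid cells (filled) and ECs (hatched) in each of the 4 libraries, with exact 95% counting intervals and the cell counts above the bars. The myeloid share runs from 2.5% in Ctrl to 34.4% in mIgG1, and 1 of 1611 ECs in mIgG1 and 0 in the other libraries reach 3 UMIs.

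The median member had 9 Gpnmb UMIs in mIgG1, 6 in Ang2 Ab and Ctrl, and 10 in EC-Ang2, and the highest cell had 161, 82, 31 and 105. Just inside the threshold, 87, 89, 6 and 45 cells had exactly 3 Gpnmb UMIs, and just outside it, 114, 116, 14 and 61 had 2. Members held more RNA counts than Gpnmb 0 cells. Their median was 9281, 8086, 9635 and 10095 UMIs against 5776, 5032, 6585 and 6662, with 2368, 2200, 2430 and 2473 genes detected against 1774, 1640, 1882 and 1941. Because a deep cell reaches 3 UMIs more easily, list counts are also given with Gpnmb 0 cells matched to members in depth (matched depth). The Gpnmb 0 class was also mixed. Cells with at least 10 UMIs of the neutrophil genes S100a8 and S100a9 made up 4.81%, 8.38%, 24.3% and 24.3% of it, against 1.85%, 3.00%, 6.90% and 11.3% of members, and cells with dendritic genes made up 7.39%, 7.44%, 6.23% and 4.21% against 0.794%, 0.693%, 0% and 0.262%. Of barcodes with at least 2000 UMIs, 371 sequences occurred in more than 1 library, 37 of them among gated cells and 0 among members.

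Because the classes are split by Gpnmb itself, Gpnmb and the genes of the gate are described and were not tested. Gpnmb (ENSMUSG00000029816, mm10 chr6:49036546-49070929, plus strand) stood at 1516, 1034, 727 and 1311 CPM (UMIs of a gene in 1000000 UMIs of the class) in members of the mIgG1, Ang2 Ab, Ctrl and EC-Ang2 libraries. Of the gate genes, Ctss, the lysosomal protease cathepsin S, was at 11648, 10340, 9545 and 11404 CPM in members and 5436, 4880, 4972 and 5703 CPM in Gpnmb 0 cells, whereas Fcer1g, an adaptor of Fc receptors, lay between 3809 and 4484 CPM in members and between 3567 and 4198 CPM in Gpnmb 0 cells.

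For all other genes, the UMIs of a class were summed per library and the 8 sums were tested with the library as a block. The test asks which genes differed between the classes on average over the 4 libraries. It does not ask whether each library moved in the same direction. Of 10020 genes tested, 1513 were higher in Gpnmb-positive cells (15.1%) and 1709 were lower (17.1%) at an adjusted p below 0.05 by edgeR's quasi-likelihood test, and the median log2 difference over all tested genes was 0.02. The direction was the same in all 4 libraries for 1178 of the higher and 1593 of the lower genes. Below, overlap of the classes is described gene by gene. The share of all tested genes without overlap is not given, so non-overlap does not set a named gene apart. Without Ang2 Ab, 972 genes were called higher, and without neutrophil-type and dendritic-type cells 1297 were called higher and 1586 lower.

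The 3 marker genes that came with Gpnmb in the label were all higher. Fabp5, a cytosolic carrier of fatty acids (chr3:10012548-10016607, plus strand), was at 2828, 2915, 1014 and 2516 CPM in members of mIgG1, Ang2 Ab, Ctrl and EC-Ang2 and at 225, 312, 133 and 229.9 CPM in Gpnmb 0 cells, a log2 difference of 3.35 (edgeR adjusted p = 5.44e-10). The 2 classes did not overlap over the 4 libraries, and Ctrl was the lowest in both. Spp1, the secreted matrix protein osteopontin (chr5:104435118-104441050, plus strand), was at 5361, 8549, 7279 and 3559 CPM against 1611, 2993, 1484 and 1326 CPM, a log2 difference of 1.76 (edgeR adjusted p = 7.55e-08). Again the classes did not overlap, with Ang2 Ab highest in both. Ctsk, the lysosomal collagenase cathepsin K known from osteoclasts (chr3:95499256-95509362, plus strand), was at 60.7, 81.1, 3.41 and 109.6 CPM against 3.84, 8.19, 1.84 and 5.99 CPM, a log2 difference of 3.77 (edgeR adjusted p = 5.59e-09). In Ctrl it rested on 1 UMI in 29 members, inside the range of the Gpnmb 0 cells, while the other libraries had 442, 306 and 442 UMIs. These markers were named with results of the same libraries known, so they describe the cells and are no independent check of the label. Ctsk was near 0 in Ctrl members.

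Cell by cell the same genes were spread unevenly. With each cell thinned to 2000 UMIs, 82.9%, 86.6%, 72.4% and 74.5% of members in the same order had a Fabp5 UMI, against 20.4%, 24.8%, 16.7% and 25.8% of Gpnmb 0 cells. A Spp1 UMI was found in 74.1%, 81.1%, 65.5% and 63.0% of members against 41.6%, 48.2%, 22.1% and 26.4%. Ctsk was found in 7.94%, 12.9%, 0% and 14.4% of members against 0.832%, 1.75%, 0.367% and 0.784%, and before thinning in 26.9%, 34.6%, 3.45% and 47.5% against 2.13%, 3.25%, 1.01% and 2.35%. In ECs the same measure gave 7.95%, 4.86%, 0.709% and 2.83% for Fabp5, 16.6%, 18.2%, 3.04% and 6.77% for Spp1 and at most 0.248% for Ctsk. At least 3 Spp1 UMIs, without thinning, were found in 73.0%, 82.2%, 75.9% and 62.2% of members against 30.8%, 35.5%, 18.5% and 21.0% of Gpnmb 0 cells. A UMI of Fabp5 or Spp1 was thus found in most members, above the share in ECs, and one of Ctsk in a minority.

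Levels were also set against the number of Gpnmb UMIs. In mIgG1, Fabp5 was at 225 CPM in cells without a Gpnmb UMI, 479 at 1, 903 at 2, 1328 at 3, 996 at 4, 1887 at 5 to 9 and 3806 at 10 or more. In Ang2 Ab it went from 312 to 911, 1259, 1772, 1956, 2379 and 4210 CPM over the same steps, and in EC-Ang2 from 229.9 to 509, 1099, 714, 1308, 1836 and 3387 CPM. Spp1 was less regular, at 1611 CPM in cells of mIgG1 without a Gpnmb UMI, 2668 at 3, 1834 at 4 and 6967 at 10 or more, and Ctsk in Ctrl was at 0 CPM in all bins from 4 Gpnmb UMIs. Plac8, a gene of blood monocytes, went the other way, from 2108 CPM at 0 to 263 at 3 and 90.9 at 10 or more in mIgG1. There was no step at the threshold, and cells with 1 or 2 Gpnmb UMIs lay between the classes for both genes. In Ctrl the last 4 bins held 6, 4, 13 and 6 cells, and Fabp5 stood between 593 and 1273 CPM in all bins with Gpnmb except that at 2 UMIs, where it was 413 CPM.

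**Figure D2:**
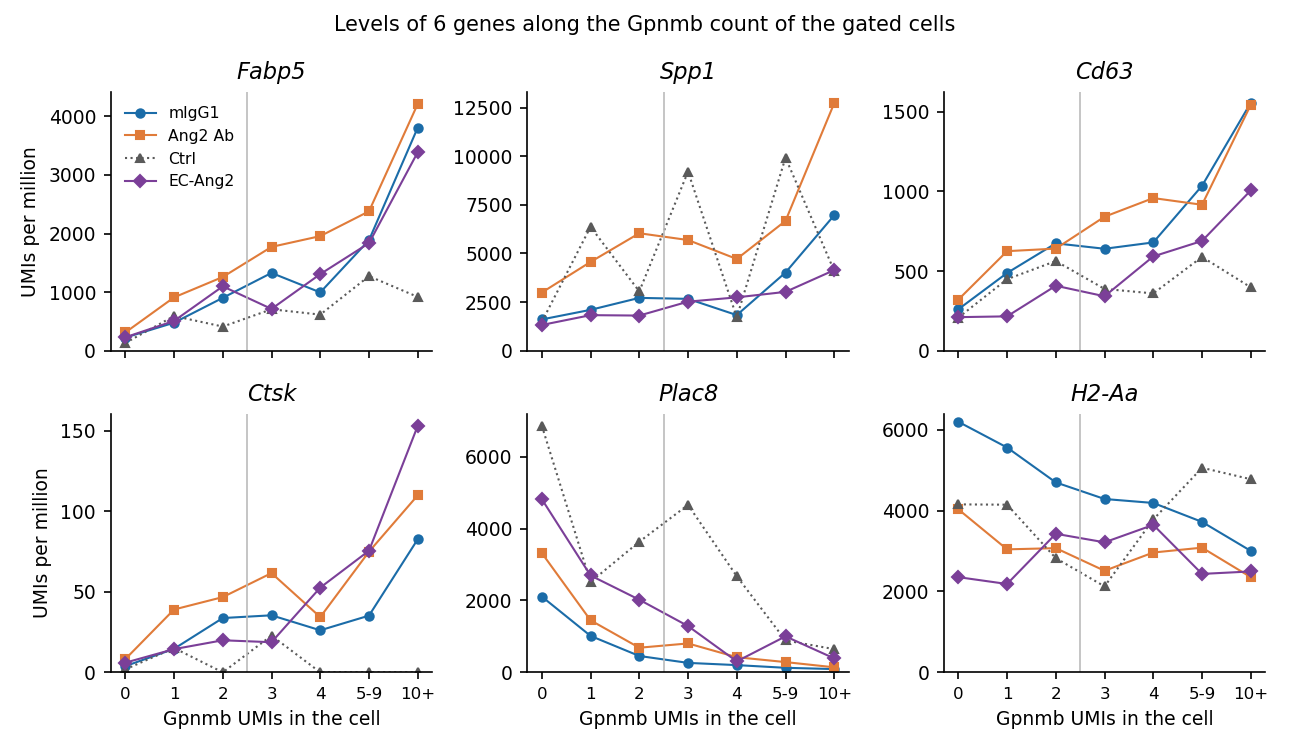
CPM of Fabp5, Spp1, Cd63, Ctsk, Plac8 and H2-Aa in gated cells with 0, 1, 2, 3, 4, 5 to 9 and 10 or more Gpnmb UMIs, 1 line per library (Ctrl dotted, with few cells above the threshold), the vertical line marking the threshold of 3 UMIs. In mIgG1 Fabp5 goes from 225 to 3806 and Plac8 from 2108 to 90.9.

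The genes with the largest increases outside the markers included several of lysosomes and vesicles. Atp6v0d2, a subunit of the proton pump that acidifies lysosomes (chr4:19876841-19922605, minus strand), was at 55.2, 138, 88.7 and 167 CPM in members of mIgG1, Ang2 Ab, Ctrl and EC-Ang2 and at 1.92, 11.3, 3.97 and 9.61 CPM in Gpnmb 0 cells, a log2 difference of 4.07 (edgeR adjusted p = 5.44e-10). Each member value was above every Gpnmb 0 value. Syngr1, a vesicle membrane protein (chr15:80091334-80119501, plus strand), was at 380.0, 222, 154 and 169 CPM against 63.7, 33.7, 19.3 and 20.5 CPM, a log2 difference of 2.82 (edgeR adjusted p = 5.44e-10), with mIgG1 highest in both classes and no overlap. Cd63, a tetraspanin of late endosomes (chr10:128900989-128912822, plus strand), was at 1259, 1143, 481 and 816 CPM against 260.3, 321, 208 and 211 CPM, a log2 difference of 1.88 (edgeR adjusted p = 3.13e-07). Its classes did not overlap either, and Ctrl was the lowest member value. The other genes that rose by this rule were F7, coagulation factor VII (2.21), the predicted gene Gm15056 (2.07), Acp5, tartrate-resistant acid phosphatase (2.00), Pld3, a lysosomal nuclease (1.95), Gstm1, a glutathione transferase (1.94), and Vat1, a vesicle membrane protein (1.89), all as log2 differences with edgeR adjusted p between 8.76e-09 and 7.89e-06. Gm15056 differed strongly between libraries, at 54.1, 145, 1061 and 452 CPM in members.

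The largest decreases included genes known from blood monocytes and neutrophils. Ccr2, the receptor by which monocytes follow chemokine into tissue (chr9:124101950-124113557, plus strand), was at 42.8, 44.3, 68.3 and 51.3 CPM in members and at 295, 268, 304 and 294 CPM in Gpnmb 0 cells, and fell by 2.56 on the log2 scale (edgeR adjusted p = 1.25e-09). Its level varied little between libraries within each class, and the classes did not overlap. Plac8 (chr5:100553725-100572245, minus strand) was at 125, 331, 1628 and 630.3 CPM against 2108, 3320, 6863 and 4819 CPM, and fell by 3.09 (edgeR adjusted p = 3.03e-07), with Ctrl highest in both classes and no overlap. Il1r2, a decoy receptor of interleukin-1, fell by 3.91, Ifitm6 and Ifitm1, interferon-induced membrane proteins, changed by −3.69 and −3.64, and S100a8 fell by 3.02 (a subunit of calprotectin), Ccnd2 by 2.85 (cyclin D2), Amica1 by 2.35 (a leukocyte adhesion molecule), S100a4 by 2.29 (a calcium-binding protein) and Isg20 by 2.00 (an exonuclease), with edgeR adjusted p between 1.25e-09 and 1.51e-05. S100a8 was at 215, 287, 253 and 522 CPM in members and 928, 1444, 8515 and 4999 CPM in Gpnmb 0 cells, and without neutrophil-type and dendritic-type cells its log2 difference was 0.69 in the other direction. Those cells were defined by S100a8 itself, so that value is a description and no test.

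**Figure D3:**
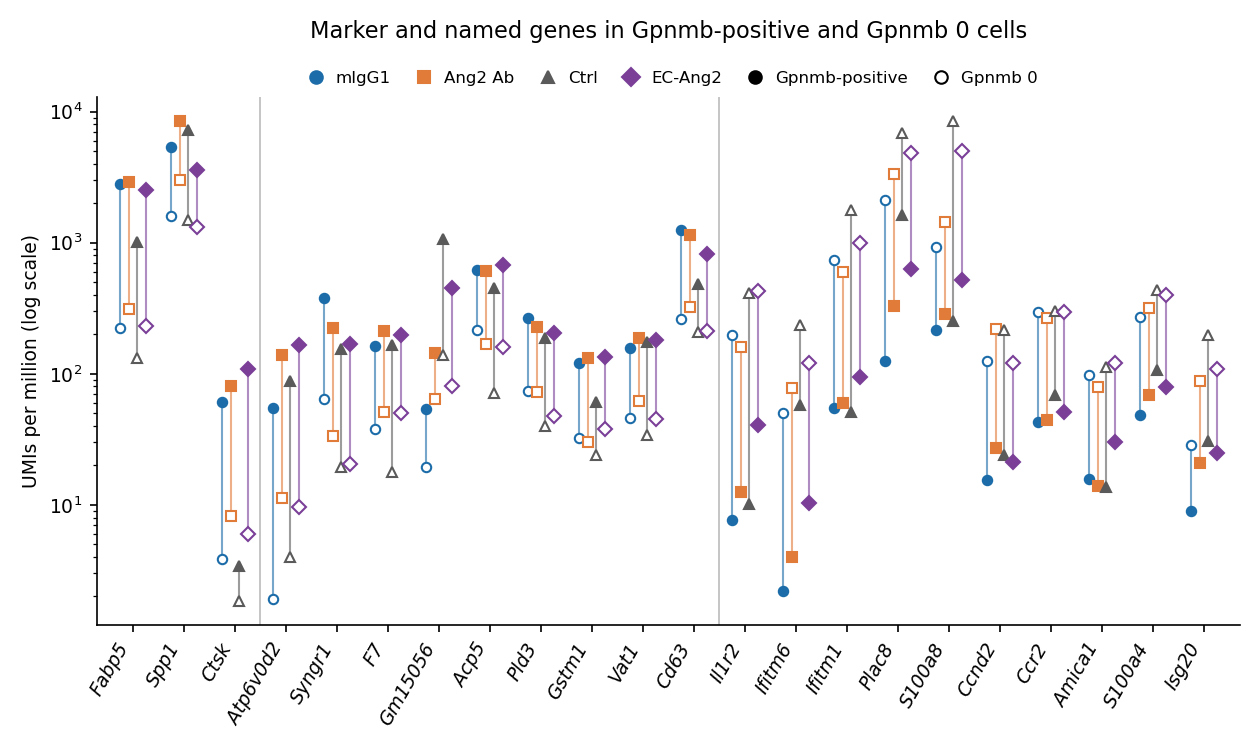
CPM on a log axis for the marker genes and the most changed genes, filled points for Gpnmb-positive and open points for Gpnmb 0 cells, 1 point per library. For Fabp5 the filled points lie between 1014 and 2915 and the open points between 133 and 312, and for Ccr2 the filled points lie between 42.8 and 68.3 and the open points between 268 and 304.

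Gene lists give these changes by function. Of 12 lysosomal proteases tested, 11 were higher and 1 was lower, with a median log2 difference of 0.76 (10 higher, 1 lower and 0.80 at matched depth). Ctsd, the aspartyl protease cathepsin D, was at 7536, 5253, 2502 and 4928 CPM in members and 1993, 1525, 1091 and 1616 CPM in Gpnmb 0 cells, a log2 difference of 1.65 (edgeR adjusted p = 1.10e-07). Ctsb, cathepsin B, was at 5470, 3697, 4730 and 4596 CPM against 1494, 1425, 1509 and 1559 CPM, a log2 difference of 1.63 (edgeR adjusted p = 8.76e-09). Neither protease overlapped between classes, and Ctrl was lowest for Ctsd but not for Ctsb. Tpp1, a tripeptidase, rose by 1.22 and Ctsl by 0.98, whereas Ctsc, which activates granule proteases, fell by 0.62 (edgeR adjusted p = 1.27e-05).

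Of 27 lysosomal membrane proteins and hydrolases, 19 were higher and 0 lower, with a median of 0.74 (20 higher, 0 lower and 0.73 at matched depth). Psap, the precursor of the saposins that present sphingolipids to their hydrolases, was at 8428, 7641, 6631 and 7867 CPM against 3067, 2919, 2161 and 2530 CPM, a log2 difference of 1.54 (edgeR adjusted p = 1.51e-09), without overlap and with little spread between libraries. Gaa, which breaks down glycogen, rose by 1.29, Hexa by 1.22, the cholesterol exporter Npc1 by 1.05, the glycolipid hydrolase Gla by 1.05, Grn by 0.88 and Lamp1 by 0.73. Lamp2 (0.09), Gm2a (0.00) and Asah1 (0.09) did not pass the test. Of 16 subunits of the vacuolar proton pump, 13 were higher and 0 lower with a median of 0.33 (13, 0 and 0.41 at matched depth), among them Atp6v1c1 (1.06), Atp6v1a (0.70) and Atp6v0e (0.58) besides Atp6v0d2. Summed over the list, lysosomal membrane proteins and hydrolases took 20629, 17958, 16494 and 18771 CPM in members against 10655, 9852, 8841 and 9640 CPM, so the lowest member library was above the highest Gpnmb 0 library.

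Many lysosomal genes carry a short E-box-type element near their start that TFEB, TFE3 and MITF, the MiT/TFE factors, can bind. The 250 bases before each start in RefSeq's promoter table (GRCm38.p6) were searched on both strands for the letters TCACGTG and TCATGTG, which cannot share a position on 1 strand. Of 27025 promoters, 852 held the first (3.15%), 870 the second (3.22%) and 1691 either (6.26%). Of the 43 genes of the 3 lysosome lists that had an entry, 10 held either (23.3%), and all 10 were among the 33 genes with an entry that were higher in Gpnmb-positive cells (30.3%). Over all tested genes the share was 6.90% (532 of 7712), over all genes called higher 9.15% (107 of 1169) and over all called lower 6.21% (80 of 1289). In 14 genes of cholesterol synthesis it was 21.4% and in 10 interferon-induced genes 0%. Sequences are printed for 7 of the 10 genes to show the element in its setting, each as 30 bases read in the direction of the gene, with the element in capitals (CACATGA is TCATGTG read on the opposite strand). A match describes these letters and is no evidence of binding.
Ctsd (chr7:142387909-142387938, minus strand, 99 bases before the start): ctcgcccgcgtcTCACGTGacccgttgagg
Lamp1 (chr8:13159087-13159116, plus strand, 62 bases before): gagggcaagataTCACGTGgtccagcgccc
Mcoln1 (chr8:3500461-3500490, plus strand, 46 bases before): caggcgccccgcTCACGTGaccgcggcgca
Gaa (chr11:119267810-119267839, plus strand, 141 bases before): ttttctgtgcgaTCACGTGtttgactctga
Atp6v1a (chr16:44139374-44139403, minus strand, 132 bases before): tttttttttaaaTCACGTGataggcttaac
Grn (chr11:102430285-102430314, plus strand, 210 bases before): tgattctctaatCACATGAtccctagaaat
Scarb2 (chr5:92505672-92505701, minus strand, 32 bases before): gccgctgcagggCACATGActgaaggcctc

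Of the 9 genes of the MiT/TFE system tested, 3 were higher and 1 lower (4 and 0 at matched depth, and 2 and 1 without neutrophil-type and dendritic-type cells). Fnip2, a partner of folliculin, rose by 1.37 on the log2 scale, the GTPase Rragc by 0.64 and Mitf itself by 0.42 (edgeR adjusted p = 0.0169). The Mitf call was lost without those cells (0.22, edgeR adjusted p = 0.177) and at matched depth (0.34, edgeR adjusted p = 0.0808). It was also lost with DESeq2, with no block and without Ang2 Ab. Rraga fell by 0.33. Tfeb had a log2 difference of 0.24 (edgeR adjusted p = 0.318) and Tfe3 one of −0.17, and neither passed the test. Of 10 genes known from osteoclasts, which share this lysosomal equipment, 5 were higher (Atp6v0d2, Ctsk, Acp5, the chloride transporter Clcn7 and its partner Ostm1) and 2 were lower, the protease Mmp9 (−4.01) and Ocstamp (−2.86), a protein of cell fusion. At matched depth 5 were higher and 3 lower, and without neutrophil-type and dendritic-type cells 5 were higher and 1 (Ocstamp) lower, with Mmp9 too low to be tested. Oscar and Calcr were at 0 in members.

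Lipid carriers and lipid droplet genes were higher, though not all of them. Of 15 tested, 10 were higher and 3 lower, with a median of 0.80 (9 higher, 2 lower and 0.82 at matched depth). Plin2, the coat protein of lipid droplets, was at 739, 842, 1034 and 1183 CPM in members and 420.4, 519, 533 and 711 CPM in Gpnmb 0 cells, a log2 difference of 0.82 (edgeR adjusted p = 1.82e-06). Hilpda, an inhibitor of lipolysis on droplets, was at 364, 816, 1007 and 926 CPM against 153, 298, 267 and 381 CPM, a log2 difference of 1.48 (edgeR adjusted p = 1.61e-07). Plin2 did not overlap between classes whereas Hilpda of mIgG1 members lay below the highest Gpnmb 0 value, and among members both were higher in the 12 dpi pair. The fatty acid carriers Fabp3 and Fabp4 rose by 2.02 and 1.64, the cholesteryl ester hydrolases Nceh1 and Lipa by 1.39 and 1.09 and Soat1, which makes cholesteryl ester, by 0.80. Fabp4 was at 50.5, 28.1, 0 and 17.6 CPM in members. G0s2, an inhibitor of the lipase encoded by Pnpla2, fell by 4.99 (edgeR adjusted p = 1.09e-08), Dgat2, which makes triglyceride, by 1.53 and Pnpla2 by 0.46. Lpl, lipoprotein lipase, had a log2 difference of 0.33 (edgeR adjusted p = 0.0882).

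For uptake, 4 of 8 lipid receptors were higher and 1 lower, also at matched depth. Cd68, a scavenger receptor of late endosomes, was at 1462, 1121, 1133 and 1286 CPM against 534, 482, 367 and 439.6 CPM, a log2 difference of 1.48 (edgeR adjusted p = 2.05e-08), with no overlap. Lrp12 rose by 1.79, Cd36, a fatty acid and oxidized lipoprotein receptor at 7.69 to 27.3 CPM in members, by 1.08 and Lrp1 by 0.73. Msr1, scavenger receptor A, had a log2 difference of −0.22 (edgeR adjusted p = 0.103). Of 14 genes of cholesterol efflux and LXR targets, 6 were higher and 1 lower (Arl4c, −0.26), and 7 and 0 at matched depth. Abca1, the cholesterol exporter, was at 145, 181, 61.4 and 101 CPM against 71.2, 78.2, 27.4 and 43.6 CPM, a log2 difference of 1.18 (edgeR adjusted p = 2.40e-07). It was higher in members of each library, although Ctrl members lay among the Gpnmb 0 values. Apoc4 rose by 1.52, the LXR receptor Nr1h3 by 0.97, Scd2 by 0.81 and Abcg1 by 0.70. Apoe, the apolipoprotein that carries exported lipid, was at 32984, 10345, 3423 and 6468 CPM against 17579, 6573, 4093 and 4840 CPM, a log2 difference of 0.46 (edgeR adjusted p = 0.0217), and in Ctrl it was lower in members than in Gpnmb 0 cells.

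Cholesterol synthesis moved the other way. Of 20 enzymes and regulators, 0 were higher and 12 lower, with a median of −0.62 (0 higher, 11 lower and −0.55 at matched depth), and their summed level was 315, 300.1, 297 and 279.9 CPM in members against 434, 421, 517 and 399.7 CPM, lower in each library and without overlap. Idi1 fell by 1.56 (edgeR adjusted p = 4.89e-06), Cyp51 by 1.47 and Sqle, squalene epoxidase, by 1.43. Hmgcs1, which acts early in the pathway, fell by 0.62. Of 14 genes of PPAR signalling and fatty acid oxidation, 6 were higher, among them Angptl4 (0.95), the lipid-sensing receptor Pparg (0.86), Acaa2 (0.56) and Cpt1a (0.53), which admits fatty acids to mitochondria, and 3 were lower, Ucp2 (−0.38), Hadhb (−0.27) and Acadl (−0.24). At matched depth 5 were higher and 3 lower. The Acadl difference was 0.03 without neutrophil-type and dendritic-type cells.

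Of 9 iron genes, 7 were higher and 1 lower (7 and 0 at matched depth). Ftl1, ferritin light chain, was at 24600, 27793, 18514 and 23439 CPM against 11325, 12220, 8007 and 11397 CPM, a log2 difference of 1.16 (edgeR adjusted p = 5.59e-09), with no overlap. Fth1, the heavy chain, rose by 0.81, Hmox1, heme oxygenase, by 1.03 and the heme transporter Slc48a1 by 1.01, and the iron exporter Slc40a1 fell by 1.70. Both ferritins have near-identical processed copies in the genome, which the counting may have split. Of 11 genes of the NRF2 response, 5 were higher, Prdx6 (1.00), Slc7a11 (0.71), Gclc (0.65), Prdx1 (0.50) and Txn1 (0.22), and 1 was lower, Txnrd1 (−0.32), with 5 and 0 at matched depth. Of 16 glycolysis genes, 7 were higher, among them Hk3 (0.66), Pfkl (0.46), Ldha (0.41) and Pgam1 (0.41), and 2 lower, Pfkp (−0.81) and the lactate exporter Slc16a3 (−0.30). At matched depth 5 were higher and 1 lower, and without neutrophil-type and dendritic-type cells 4 were higher (Hk3, Pfkl, Pgam1 and Ldha) and 4 lower (Pfkp, Slc16a3, Slc2a1 and Hk1).

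Of 16 genes of phagocytosis and clearance of dying cells, 7 were higher and 3 lower (7 and 2 at matched depth). Trem2, a lipid receptor of microglia and macrophages, was at 730.3, 403, 263 and 269.5 CPM against 345, 195, 149 and 153 CPM, a log2 difference of 0.98 (edgeR adjusted p = 1.70e-06), and was highest in mIgG1 in both classes, whose ranges overlapped across libraries. Mertk, which binds dying cells through bridging proteins, rose by 1.27, Mfge8, 1 such bridge, by 0.91, Cd9 by 0.66, Stab1 by 0.57, Cd300lf by 0.53 and C3ar1 by 0.48. Timd4 (−4.07), Fcgr1 (−0.85) and Fcgr4 (−0.45) fell, and Axl had a log2 difference of −0.27 (edgeR adjusted p = 0.0550). Of 12 genes of microglia in neurodegeneration, 7 were higher, among them the chemokine Ccl6 (1.60), the protease inhibitor Cst7 (0.78) and B2m (0.53) besides Ctsd and Trem2, and Csf1 fell by 1.07. Without neutrophil-type and dendritic-type cells of either class the Csf1 difference was 0.10 (adjusted p = 0.670), and at matched depth it was −0.11 (adjusted p = 0.781).

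**Figure D4:**
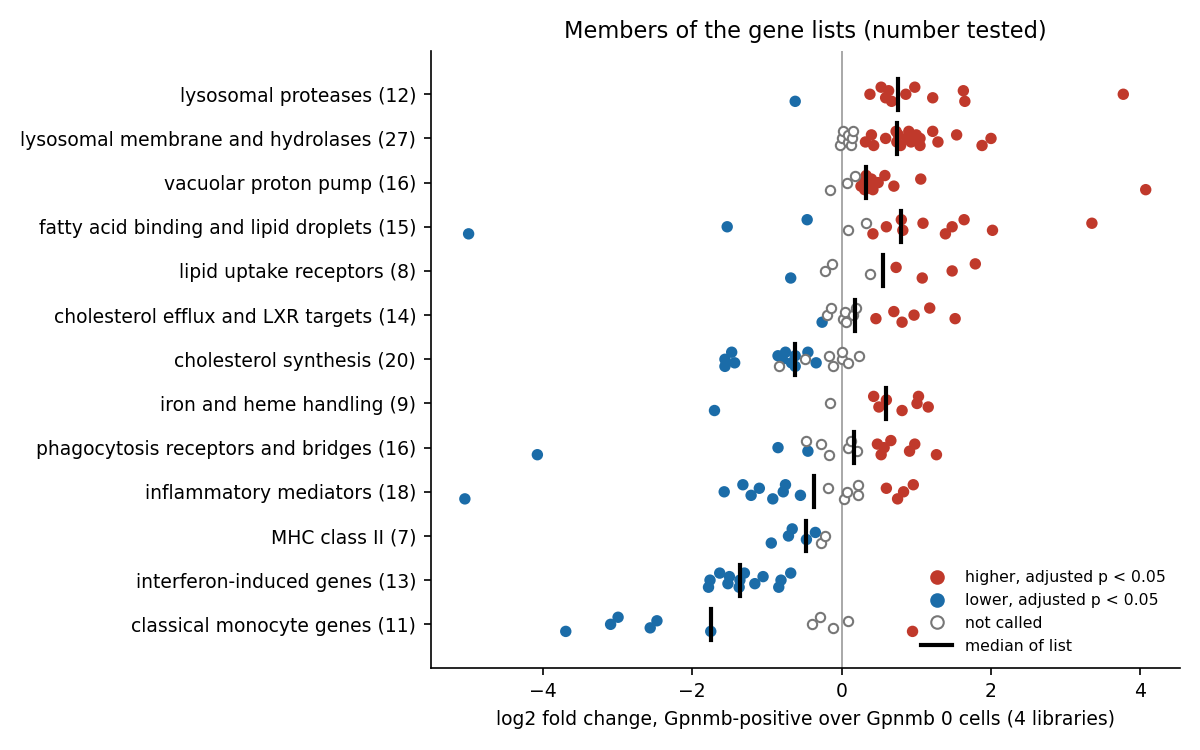
Log2 difference of Gpnmb-positive over Gpnmb 0 cells for each tested member of the gene lists, filled red (higher) or blue (lower) where the adjusted p was below 0.05 and open otherwise, the black bar giving the list's median. Medians lie above 0 for lysosomal proteases (0.76) and lipid droplet genes (0.80) and below 0 for cholesterol synthesis (−0.62) and interferon-induced genes (−1.36).

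Monocyte and inflammatory genes separated by group. Of 11 classical monocyte genes, 6 were lower and 1 higher, with a median of −1.75 (6 lower, 1 higher and −1.40 at matched depth). Besides Ccr2, Plac8 and Ifitm6, the lower genes included the proteoglycan Vcan (−2.47) and Ms4a4c (−1.75). F13a1, coagulation factor XIII, rose by 0.95. Ly6c2, the surface marker of inflammatory monocytes, was at 1021, 1375, 2368 and 2369 CPM in members against 1331, 1687, 1668 and 3012 CPM, a log2 difference of −0.12 (edgeR adjusted p = 0.460), with overlapping classes. At 2000 UMIs per cell, 62.8%, 63.5%, 75.9% and 78.7% of members had a Ly6c2 UMI against 59.5%, 62.6%, 54.0% and 69.6% of Gpnmb 0 cells, whereas 12.7%, 27.0%, 55.2% and 35.7% had a Plac8 UMI against 63.4%, 74.3%, 84.1% and 83.5%. In ECs these shares were 7.82%, 9.07%, 4.15% and 9.99% for Ly6c2 and 4.22%, 7.64%, 8.1% and 7.44% for Plac8.

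All 13 interferon-induced genes tested were lower, with a median of −1.36 (12 of 13 lower and a median of −0.81 at matched depth). Isg15, a ubiquitin-like protein, was at 271, 535, 1427 and 581 CPM against 719.6, 1636, 2518 and 1528 CPM, and fell by 1.30 (edgeR adjusted p = 5.72e-07). Within each library it was lower in members, but Ctrl members lay among the Gpnmb 0 values. Oasl1 (−1.78), Ifit3 (−1.76), Ifi44 (−1.63) and Ifit1 (−1.52) had the largest decreases. Of the 13, 12 were lower in each of the 4 libraries, Mx1 being the exception, as were 1593 of all 1709 genes called lower. Of 18 inflammatory cytokines and chemokines, 9 were lower and 4 higher. Il1b was at 1120, 1402, 2689 and 2114 CPM against 2206, 2550, 3791 and 3847 CPM, and fell by 0.78 (edgeR adjusted p = 3.78e-06). Il12b (−5.04), Cxcl10 (−1.57), Ccl4 (−1.32), Tnf (−1.21) and Cxcl9 (−1.10) were lower as well. Inhba (0.96), Saa3 (0.83), Nos2 (0.75) and Ccl2 (0.60) were higher. At matched depth 6 were lower and 4 higher, with a median of 0.06 in place of −0.37, and Ccl3 had a difference of 0.06 (adjusted p = 0.830).

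Nos2, inducible nitric oxide synthase, was at 51.6, 129.6, 515 and 291 CPM in members against 48.3, 97.3, 195 and 144 CPM, a log2 difference of 0.75 (edgeR adjusted p = 0.00176). It was higher in members of every library, by least in mIgG1, and the ranges of the classes overlapped across libraries. At 2000 UMIs, a Nos2 UMI was found in 7.67%, 19.6%, 34.5% and 33.1% of members against 6.93%, 11.6%, 17% and 17.1% of Gpnmb 0 cells, with 1.61%, 2.04%, 3.21% and 2.17% of ECs. Of the 8 genes of alternative activation 2 were higher, among them the mannose receptor Mrc1 (0.95, at 0 in Ctrl members), and 3 were lower, the chemokine Ccl17 (−2.96, edgeR adjusted p = 0.00114), the lectin Clec10a (−1.99) and the interleukin-4 receptor Il4ra (−0.54), with 2 and 3 at matched depth. Cd163 was at 0.

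Growth factor and matrix genes were mixed, with 9 of 17 higher and 3 lower. At matched depth 7 were higher and 0 lower, and without neutrophil-type and dendritic-type cells 8 were higher and 5 lower. Gdf15, a stress-induced cytokine at 21.3, 17.2, 0 and 17.6 CPM in members, rose by 2.36, the protease inhibitor Timp2 by 1.42, oncostatin M (Osm) by 0.83, Vegfa, an angiogenic factor, by 0.68 and Hbegf by 0.60. Thbs1 (−0.53), Il1rn (−0.50) and Tgfb1 (−0.35) were lower, calls that were lost at matched depth (adjusted p between 0.0654 and 0.207). Mmp12, macrophage elastase, was at 92.1, 509, 1174 and 343 CPM in members against 108, 294, 67.1 and 189 CPM, and its log2 difference of 1.25 missed the threshold (edgeR adjusted p = 0.0506). In mIgG1 members were the lower class, and the difference was 1.77 without mIgG1 and 0.53 without Ctrl (edgeR adjusted p of 0.0114 and 0.00573). At matched depth the Mmp12 difference was 0.46 (edgeR adjusted p = 0.356), and with DESeq2 it was 1.26 (DESeq2 adjusted p = 0.283). MHC class II genes were lower in 5 of 7 cases, with a median of −0.47 (7 of 7 lower and −0.71 at matched depth), but 3 of 7 were lower in all 4 libraries. Their summed level was 24350 and 19480 CPM in members of mIgG1 and Ang2 Ab against 43443 and 30999 CPM, and 30298 and 17755 CPM in Ctrl and EC-Ang2 against 29579 and 16999 CPM, where members were slightly the higher class. Lower genes were the transactivator Ciita (−0.94), the peptide loaders H2-DMa (−0.71) and H2-DMb1 (−0.66), H2-Eb1 (−0.47) and the invariant chain Cd74 (−0.35, edgeR adjusted p = 0.0225). H2-Aa had −0.28 (edgeR adjusted p = 0.120) and H2-Ab1 −0.22 (edgeR adjusted p = 0.267).

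Markers of other cells were followed in the same way, and their part in the results above was not tested. Of 6 microglial genes tested outside the gate 0 were higher and 2 lower (Gpr84 and Cx3cr1). All 7 genes of the list summed to 711, 492, 461 and 429.7 CPM in members against 674, 522, 680.1 and 507 CPM. Of 6 genes of resident and border macrophages 3 were higher (Ms4a7 1.57, Pf4 1.10 and Mrc1), with C1qb the most abundant. Cd163, a defining gene of border macrophages, was at 0. All 10 genes of the list summed to 6764, 3929, 915 and 2379 CPM against 4211, 2709, 2526 and 2045 CPM. Without Ctrl, all 6 genes tested were higher. Neutrophil genes were lower in 8 of 9 cases with a median of −3.55, led in abundance by S100a8, at a summed 354, 480.1, 348 and 839 CPM against 1539, 2576, 16776 and 9222 CPM, and dendritic genes in 8 of 9 with a median of −4.12, led by Ccr7, at 22.0, 30.5, 10.2 and 16.6 CPM against 326, 492, 366 and 272 CPM. Without neutrophil-type and dendritic-type cells, 2 neutrophil genes were higher (S100a8 and Mmp8) and 1 lower (Csf3r), with a median of −0.15. In the same setting 3 dendritic genes were lower (Flt3, Kmo and Ccl22). Those cells were themselves defined by S100a8, S100a9 and dendritic genes that include Flt3 and Kmo. These counts and the median after the cut are therefore a description and no test. At matched depth 1 neutrophil gene was higher and 4 lower (median −1.29), and 7 dendritic genes were lower. Endothelial genes outside the gate summed to 202, 337, 283 and 195 CPM in members against 215, 367, 297 and 222 CPM, with Ly6c1 the most abundant and 1 of 8 lower (Flt1). At matched depth 0 endothelial genes were called.

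The members were then compared between conditions as 2 values per gene, with no test. Between Ang2 Ab and mIgG1, 57 of 6005 genes with enough UMIs were at least 2-fold higher (0.949%) and 29 at least 2-fold lower (0.483%), with a median log2 ratio of 0.00. Intervals on these ratios are exact, cover counting error only and lay wholly past 2-fold for 32 genes on the higher side and 3 (Saa3, Gpx3 and Apoe) on the lower. Ccl24, an eosinophil chemokine made by alternatively activated macrophages, was at 359.7 CPM (1357 UMIs) in Ang2 Ab and 3.30 CPM (24 UMIs) in mIgG1, a log2 ratio of 6.77 (95% interval 6.19 to 7.42), and of 4.32 in Gpnmb 0 cells. Ccl17 was at 133 CPM against 4.26 CPM, a log2 ratio of 4.97 (4.45 to 5.54), and of 1.52 in Gpnmb 0 cells. Mmp12 was at 509 against 92.1 CPM, 2.47 (2.34 to 2.60), with 1.44 in Gpnmb 0 cells. These 3 genes were thus higher in Ang2 Ab in both classes. The other genes with the largest ratios were S100a9, a neutrophil gene (2.81, and 1.03 in Gpnmb 0 cells), Scgb3a1, a secretoglobin also used as a marker of ECs (2.68 and 2.39), the chemokine Cxcl3 (2.20 and 1.63), Hbegf (2.16 and 2.26) and Pdcd1lg2, a checkpoint ligand (1.97 and 1.27). Whether transcripts of neutrophils or ECs had a part in the first 2 was not tested.

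On the lower side stood Saa3, an acute-phase apolipoprotein, at 411 CPM in Ang2 Ab and 1862 CPM in mIgG1, a log2 ratio of −2.18 (−2.26 to −2.10), and −1.26 in Gpnmb 0 cells. Apoe was at 10345 against 32984 CPM, −1.67 (−1.69 to −1.66), and −1.42 in Gpnmb 0 cells. Both classes thus held less of these transcripts in Ang2 Ab. Outside the gate, at least 3 Apoe UMIs were found in 93.8% of ECs and 75.5% of T cells in mIgG1. In Ang2 Ab these shares were 63.3% and 10.3%, and the part of background transcripts was not tested. The glutathione peroxidase Gpx3 (−1.83), Nav2 (−1.74), Tle1 (−1.39), Dalrd3 (−1.37), Frmd4b (−1.26) and Gpr65 (−1.24) completed the group, and Tle1 was at 0.10 in Gpnmb 0 cells. The markers of the cells changed less. In members Fabp5 had a log2 ratio of 0.04 (0.01 to 0.08), Ctsk of 0.42 and Spp1 of 0.67. Atp6v0d2 was at 1.32 (1.13 to 1.51), Hilpda at 1.17, Nos2 at 1.33 and Trem2 at −0.86. The ratios in Gpnmb 0 cells were 0.48 for Fabp5, 1.09 for Ctsk and 0.89 for Spp1. For Atp6v0d2, Hilpda and Nos2 they were 2.55, 0.96 and 1.01, so these shifts were not confined to members. Over all 6005 genes, 17.1% had an interval wholly above 0 and 13.9% an interval wholly below. Over lists, the median ratio was −0.34 for 12 lysosomal proteases (−0.15 in Gpnmb 0 cells), with 8 intervals below 0 and 1 (Ctsk) above. It was −0.17 for 27 membrane proteins and hydrolases in both classes, with 16 below and 1 (Npc2) above in members, 0.12 for the proton pump, 0.19 for lipid droplet genes and 0.22 for glycolysis. Inflammatory genes stood at 0.43 in members and 1.01 in Gpnmb 0 cells, and interferon-induced genes at 0.54 and 1.06. Markers of other cells moved as well, and their part was not tested. Genes of resident and border macrophages had a median of −0.76 in members and −0.57 in Gpnmb 0 cells (C1qa −0.71, C1qb −0.87), although Mrc1 was at 1.47 (1.02 to 1.92) in members and 0.46 in Gpnmb 0 cells, 4 microglial genes one of −0.54 and −0.22, and 5 endothelial genes one of 0.62 and 0.44, all 5 with intervals above 0 in members.

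**Figure D5:**
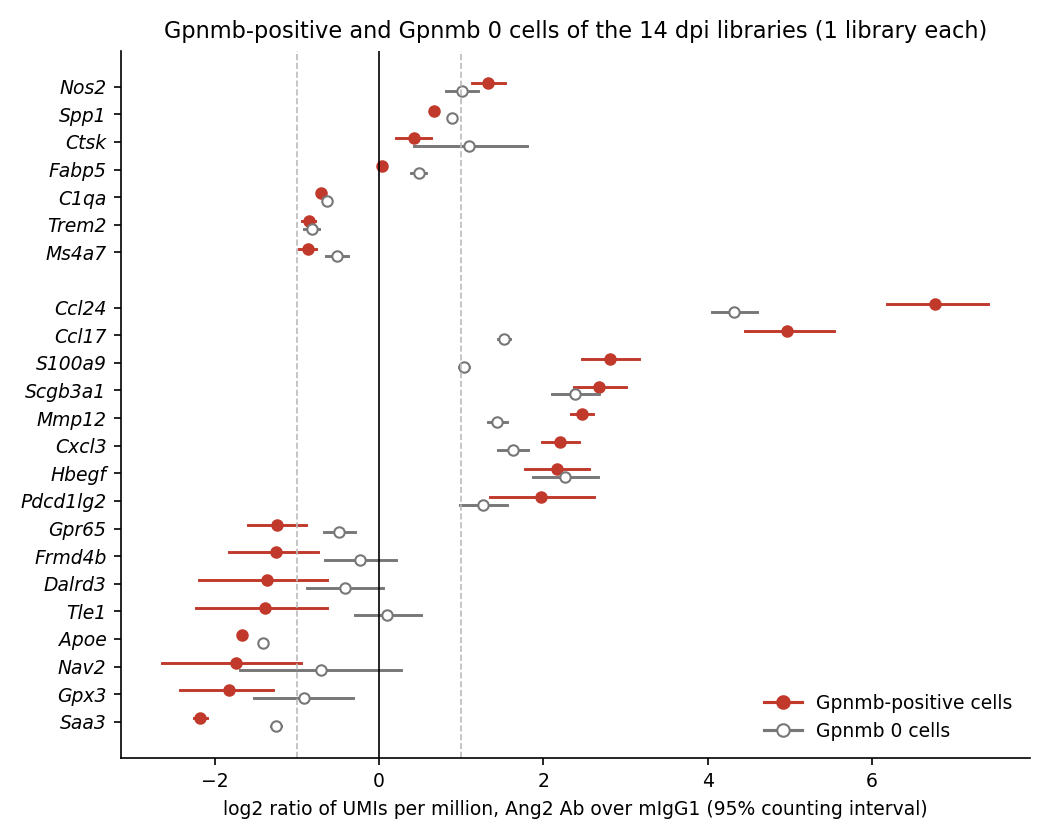
Log2 ratio of Ang2 Ab over mIgG1 with 95% counting intervals in Gpnmb-positive (red) and Gpnmb 0 cells (grey, open), for the genes with the largest ratios and selected genes of the lists, dashed lines marking 2-fold. Ccl24 lies farthest to the higher side at 6.77 and Saa3 farthest to the lower side at −2.18, each with the Gpnmb 0 ratio on the same side.

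Between EC-Ang2 and Ctrl the comparison rested on 29 Ctrl cells with 293020 UMIs, against 4033240 UMIs in EC-Ang2. Of 5738 genes, 466 were at least 2-fold higher (8.12%) and 153 at least 2-fold lower (2.67%), but the interval lay wholly past 2-fold for only 11 and 19 genes. Ctsk had 442 UMIs in EC-Ang2 and 1 in Ctrl, a log2 ratio of 5.01 (2.52 to 10.31). Chil3, a chitinase-like protein of monocytes and macrophages, was at 4485 against 594 CPM, 2.92 (2.70 to 3.14), and 2.84 in Gpnmb 0 cells. Man2b2, Tmem65, Gpat4, Ngfrap1 and Zdhhc3, also among the largest ratios, had 1 UMI each in Ctrl, and the interval for Man2b2 ran from 0.67 to 8.49. Ccl17 was at 37.9 CPM in EC-Ang2 and 454 CPM in Ctrl, −3.58 (−3.93 to −3.23), and −0.54 in Gpnmb 0 cells. Edn1, endothelin 1 (−2.61), Mir155hg (−2.59), Timp1 (−2.27), the integrin Itgax (−2.25), Pdcd1lg2 (−2.25), Hbegf (−2.11) and Gbp5 (−2.05) were lower too. Fabp5 was at 1.31 (1.15 to 1.48) and Ctsd at 0.98, both higher in EC-Ang2, Plin2 at 0.19, and Spp1 at −1.03. Genes of resident and border macrophages had a median of 1.34 in members, with all 5 intervals above 0, and −0.26 in Gpnmb 0 cells, and neutrophil genes a median of 1.42 (3 of 4 above 0) and −0.46, and their part was not tested. Of 11 interferon-induced genes 5 were at least 2-fold lower in EC-Ang2 (Gbp5, Isg15, Ifit1, Usp18 and Gbp2), with a median of −0.72, and all 6 MHC class II genes had intervals below 0, against 6.12% of all genes (5.73% above 0), with a median of −0.74 in members and −0.84 in Gpnmb 0 cells.

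The difference between Gpnmb-positive and Gpnmb 0 cells was itself compared between the 14 dpi pair and the 12 dpi pair. An interaction term was called for 35 of 10020 genes (0.349%, edgeR's quasi-likelihood test), 18 higher (0.180%) and 17 lower (0.170%) in the 14 dpi pair, with 629 at an unadjusted p below 0.05. H2-Ab1 was at 4743, 4052, 6836 and 3786 CPM in members and 8604, 6158, 5732 and 3188 CPM in Gpnmb 0 cells, with per-library log2 differences of −0.83, −0.54, 0.22 and 0.26, and an interaction of −0.92 (edgeR adjusted p = 3.67e-04). It was lower in members of both 14 dpi libraries and higher in those of both 12 dpi libraries. Cd74 had per-library differences of −0.73, −0.63, −0.04 and 0.02 and an interaction of −0.67 (edgeR adjusted p = 6.32e-04). The other 3 genes with the smallest adjusted p were Wfdc21 (2.33), Hp, haptoglobin (1.18), and Gm15056 (−1.33), with edgeR adjusted p of 3.50e-04, 6.29e-04 and 6.29e-04. Leaving out any 1 library left its pair with 1 library, so that the spread came from the other pair alone. The number of calls moved strongly in those fits, and they are not read further. DESeq2 called 7, among them H2-Ab1 but not Cd74 (adjusted p = 0.470). With Gpnmb 0 cells matched in depth 8 were called, 0 of them higher in the 14 dpi pair. There H2-Ab1 kept its call (−0.78, edgeR adjusted p = 0.0304). Cd74 (−0.54), Wfdc21 (0.82), Hp (0.58) and Gm15056 (−0.77) lost theirs.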

How the data were processed

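The authors deposited raw UMI counts per gene and barcode for 4 droplet (10x Chromium) libraries, each with 27998 genes and 737280 barcodes. The submitters' processing notes name Cell Ranger 2.1.1, Seurat 2.3.4 and mm10. The authors' later removal of doublets and cycling cells is not in these counts. Cells were gated as described at the start, with 26580 barcodes of at least 2000 UMIs. No doublets were removed in the main analysis. Scrublet (scanpy 1.11.5) marked 0.926%, 0.693%, 0% and 1.57% of members, in the order mIgG1, Ang2 Ab, Ctrl and EC-Ang2. The members, gene lists and comparisons were chosen with earlier results of these data known.

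UMIs of Gpnmb-positive and Gpnmb 0 cells were summed per library and tested with edgeR 4.0.16 (TMM scaling, filterByExpr, quasi-likelihood F test, library as block, Benjamini-Hochberg adjustment over all genes tested), without the 17 genes of the selection rule, in R 4.3.3. The library block pairs both classes of the same library. Differences were called at an adjusted p below 0.05. With 1 library per condition, differences between conditions were ratios of summed UMIs with exact 95% binomial intervals, for genes with at least 50 UMIs over both libraries and a UMI in at least 10% of the cells of 1 of them, and called past 2-fold.

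Named were the label's markers, the 10 largest differences in each direction among called genes with the same direction in all 4 libraries, at least 100 CPM and a UMI in at least 10% of cells, up to 4 members of each of 32 lists with defining members, the 8 largest ratios in each direction per pair, and the 5 smallest interaction p. Other members were named after their values were seen. Alternatives were DESeq2 1.42.0, no TMM, no low-count filter, no block, other Gpnmb, UMI and mitochondrial limits, matched or thinned depth, and left-out cells or libraries. The test and its interaction term were tested on simulated counts with known changes, where for both the share of false calls was above the nominal threshold, more so for the interaction. Coordinates are GENCODE M21 genes on GRCm38. Clec7a, Cxcl11, Trbc2 and Apoc2 were not analysed here. A few further list members are not reported here.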

Additional observations from a re-analysis of the deposited data

Results flagged for a closer look

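For 21 of the genes the text or lists name, the difference between Gpnmb-positive and Gpnmb 0 cells itself differed between the 14 dpi pair and the 12 dpi pair, by the interaction term of edgeR's quasi-likelihood test. Values are the log2 difference in the 14 dpi pair minus that in the 12 dpi pair, with the adjusted p. MHC class II genes were lower in the 14 dpi pair, with H2-Ab1 at −0.92 (3.67e-04), H2-Eb1 at −0.87 (0.00218), H2-Aa at −0.79 (0.00233) and Cd74 at −0.67 (6.32e-04). The interferon-induced genes Ifit1 (−1.18, 0.0142) and Rsad2 (−0.95, 0.0228) had lower values there, as had Gm15056 (−1.33, 6.29e-04), Plac8 (−1.11, 0.0209), Nos2 (−0.85, 0.0283) and Ccl5 (−0.81, 0.00357). Higher in the 14 dpi pair were Wfdc21 (2.33, 3.50e-04), the neutrophil genes S100a8 (1.80, 0.00540) and Csf3r (1.28, 0.00890), and also G0s2 (1.93, 0.0175), Hp (1.18, 6.29e-04), Csf1 (1.53, 0.00839), Ccl3 (1.53, 0.0138), Ccl4 (1.35, 9.89e-04), Apoc1 (1.77, 0.0371), Apoe (0.75, 0.0242) and Pf4 (0.97, 0.0283). Neutrophil-type cells made up 4.81% and 8.38% of the Gpnmb 0 class in the 14 dpi libraries and 24.3% and 24.3% in the 12 dpi libraries. With Gpnmb 0 cells matched in depth, 18 of the 21 calls were lost, among them all 11 that were higher in the 14 dpi pair. Several lost calls kept much of their size, such as Nos2 (−0.75), Pf4 (0.87), Csf1 (1.27), Ccl4 (1.14) and Cd74 (−0.54), and Ifit1 was at −1.73, while others were smaller, such as Wfdc21 (0.82), Hp (0.58) and Csf3r (0.18). The 3 kept were H2-Ab1 (−0.78, adjusted p = 0.0304), Ccl5 (−1.69, 0.0424) and Rsad2 (−1.27, 0.00611), and S100a8 had an interaction of −0.48 (0.999).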

How the results depend on the processing

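The replicate block was the library, which pairs both classes. With no replicate block 768 genes were higher and 883 lower, and 1648 of the 3222 calls were shared. DESeq2 called 956 higher. Thinning every cell to 2000 UMIs gave 731 and 1082. Leaving out 1 library in turn gave 972 to 1616 higher and 1268 to 1885 lower. Of 239 named or listed genes called, 215 kept the call with DESeq2, 149 with no block, 198 of 228 still tested at matched depth, 190 of 217 after thinning and 202 of 227 without neutrophil-type and dendritic-type cells. Direction reversed without those cells for S100a8 (0.69, a gene that defined them), Acadl (0.03) and Csf1 (0.10). At matched depth it reversed for Ccl3 (0.06) and the S100a8 interaction (−0.48). The cause was not tested.

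The interaction count of 35 (18 higher, 17 lower in the 14 dpi pair) was 7 (3 and 4) with DESeq2 and 8 (0 and 8) at matched depth. In alternatives chosen after seeing the data, 7 were higher and 20 lower without neutrophil-type and dendritic-type cells, and leaving out 1 library in turn gave 5 to 147 genes (3 to 55 higher, 2 to 92 lower).

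The shares of Gpnmb-positive cells in mIgG1, Ang2 Ab, Ctrl and EC-Ang2 were 39.6%, 23.1%, 3.70% and 22.1% at 2 UMIs, 27.6%, 12.0%, 1.64% and 14.8% at 5, and 15.1%, 6.34%, 0.345% and 8% at 3 after thinning to 2000. Ang2 Ab stood at 21.2% with at least 1 UMI after thinning and 19.9% without neutrophil-type and dendritic-type cells. EC-Ang2 stood at 22.1% without those cells and 21.5% from 3000 UMIs. The order within each pair held in these settings. With a 1.5-fold rule, 231 genes were higher and 205 lower in Ang2 Ab over mIgG1, and 1070 and 580 in EC-Ang2 over Ctrl. At 5 Gpnmb UMIs, 48 were lower in Ang2 Ab.

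Ctrl, with 29 members, limits every value that rests on it. Depth was not fully matched in mIgG1, where matched Gpnmb 0 cells had a median of 6930 UMIs against 9281.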

Other observations

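A few genes of other cell types were higher in Gpnmb-positive cells. Il7r, the interleukin-7 receptor known from lymphocytes, was at 87.6, 126, 259 and 186 CPM in members of mIgG1, Ang2 Ab, Ctrl and EC-Ang2 and at 32.8, 51.6, 31.5 and 46.5 CPM in Gpnmb 0 cells, a log2 difference of 1.82 (edgeR adjusted p = 5.18e-06). The classes did not overlap, and Ctrl was highest in members. The other 3 lymphocyte genes tested were lower, the natural killer genes Klrd1 (−4.73) and Nkg7 (−3.66) and the B cell gene Cd79b (−0.96), and Ms4a1 was at 0 in members. At matched depth 1 lymphocyte gene was called higher and 1 lower, and without neutrophil-type and dendritic-type cells 1 and 2. Mag, a myelin glycoprotein of oligodendrocytes, was at 11.7, 13.3, 13.7 and 10.4 CPM against 6.50, 4.20, 3.26 and 3.20 CPM, a log2 difference of 1.41 (edgeR adjusted p = 1.43e-04). After thinning to 2000 UMIs it was 0.77 (adjusted p = 0.157). Mbp (−0.90), Mobp (−0.81) and Cnp (−0.77) were lower, and Mog and Cldn11 were at 0. The 9 genes of the myelin list summed to 551, 444, 263 and 325 CPM against 506, 363, 391 and 381 CPM. Most of this sum was Trf in the 14 dpi pair, at 484 and 376 CPM in members of mIgG1 and Ang2 Ab. In their Gpnmb 0 cells Trf was at 402 and 263 CPM, so the sum mainly follows Trf there. The part of myelin transcripts in the results was not tested. Slc1a2, a glutamate transporter of astrocytes, had a log2 difference of 1.12 (edgeR adjusted p = 0.00621), a call that was lost at matched depth (0.60, adjusted p = 0.0809). Of 3 mural cell genes tested 1 was lower (Rgs5, −0.75). All 6 genes of that list summed to 19.6, 24.4, 6.83 and 10.4 CPM against 20.8, 27.2, 18.3 and 16.1 CPM. At matched depth 0 mural cell genes were called.

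Gpnmb-positive cells held few transcripts of dividing cells. Of 9 cycling genes 5 were lower, Nusap1 (−1.54), Ccnb2 (−1.5), Ube2c (−1.41), Birc5 (−1.21) and Top2a (−1.17), and Mki67 was higher (0.75, edgeR adjusted p = 0.00810). At matched depth 4 were lower and 0 higher, and without neutrophil-type and dendritic-type cells 2 were lower and 1 higher. The list summed to 27.9, 33.4, 23.9 and 23.1 CPM against 46.2, 46.5, 68.8 and 38.7 CPM. Of the 5 genes of Ang2, its receptor and integrins tested, 0 were called in either direction. Angpt2 was at 1.65, 6.89, 0 and 15.1 CPM in members against 0.591, 4.98, 0.284 and 15.7 CPM in Gpnmb 0 cells, Tek, the receptor of Ang2, at 2.61, 3.98, 0 and 0.992 CPM in members, and Itgb1 at 158, 147, 109 and 147 CPM. Angpt2 was highest in EC-Ang2 in both classes, and the part of transcripts from ECs in these values was not tested.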
